A study of Homo sapiens with 10 samples.

Results

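The genes described here encode 40 ribosome biogenesis and nucleolar factors, out of 20037 protein-coding genes on the chromosomes used. They were chosen by name, and chromatin immunoprecipitation with sequencing (ChIP-seq) gave the positions at which WDR5 and the microprotein EMBOW were called near them. All material came from HEK293T, a line of human embryonic kidney cells. An antibody to WDR5 was used on wild-type (WT) cells and on EMBOW knockout (KO) cells. Tagged EMBOW (EMBOW-FH) was recovered with anti-FLAG beads from a line stably expressing it. The labels do not mention a tagged copy in the knockout cells or a knockout in the tagged cells. The labels do not say whether either engineered line was 1 clone. Each of the 3 precipitations was 1 library, so differences between genotypes have no replicate check and no p-values are given. A summit is the single base at which the peak caller placed the top of a peak, and a gene-end summit is one within 1 kb of either end of the RefSeq gene. Summits numbered 17660 for WDR5 in WT, 21055 for WDR5 in KO and 93143 for tagged EMBOW, whose list is called EMBOW-F here. Read depth is unknown, and the lists carry the caller's −log10 q per summit in place of counts.

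Ribosomes are assembled in the nucleolus, where RNA polymerase I makes the long precursor of most ribosomal RNAs. Small nucleolar ribonucleoproteins (snoRNPs) methylate or pseudouridylate that precursor, a large complex called the small-subunit processome folds and cleaves its first part, and other factors build the large subunit around the rest. WDR5 is a WD40-repeat protein of the complexes that methylate histone H3 at lysine 4. It is also known to bind MYC, a transcription factor for which ribosome biogenesis genes are classic targets.

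WDR5 was called at most of these genes in both genotypes. In WT, 34 of the 40 genes had a gene-end summit, which is 85% (exact 95% interval 70.2 to 94.3%), against 50.0% of all protein-coding genes. In KO, 38 genes had one, which is 95% (83.1 to 99.4%), against 53.4% of all genes. In both lists a summit was found at 33 genes (82.5%), against 46.4% of all genes. The intervals cover counting error only, and the genes were neither drawn at random nor matched to the rest on expression. Although picked by name, the set was chosen with earlier results of these data known.

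**Figure D1:**
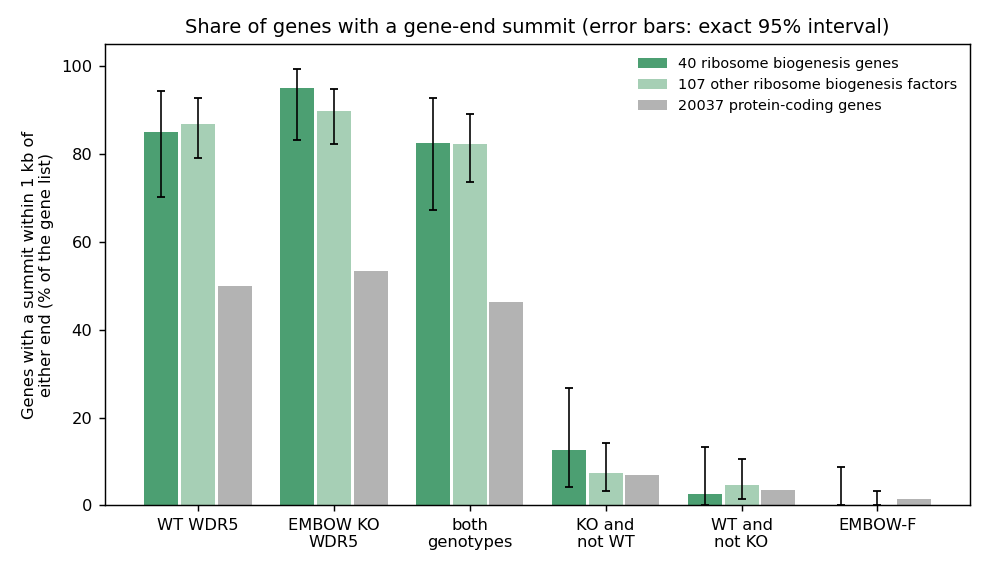
Share of genes (percent, vertical axis) with a gene-end summit in each list or combination of lists (horizontal axis). Dark bars are the 40 ribosome biogenesis genes, light bars 107 other factors of the pathway and grey bars all 20037 protein-coding genes, with exact 95% intervals for the first and second series. The dark bars for WT (85%) and KO (95%) stand above the grey bars (50.0% and 53.4%), and the EMBOW-F bar is at 0.

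The rank of a gene's best summit was taken within its own list, with 100 as the percentile of the highest −log10 q. Among the 34 genes marked in WT the median percentile was 67.6 (range 14.1 to 99.0), against 66.2 for the best summit of all 10011 genes marked in WT. For the 38 genes marked in KO the median was 69.7 (16.5 to 99.3), against 69.8 for all 10707 marked genes. The best summit stood in the top 10% of its list at 8 genes in WT (23.5%, against 16.0%) and 8 in KO (21.1%, against 17.8%). By the medians, the high share of marked genes was not accompanied by ranks above those of other marked genes. Across the 33 genes marked in both lists, the percentiles of WT and KO had a Spearman rho of 0.68, against 0.63 across all 9307 such genes. These points share cell line, antibody and genomic site. A percentile describes a list, and the lists differ in length, so a shift of percentile between genotypes is not a measured change in binding.

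**Figure D2:**
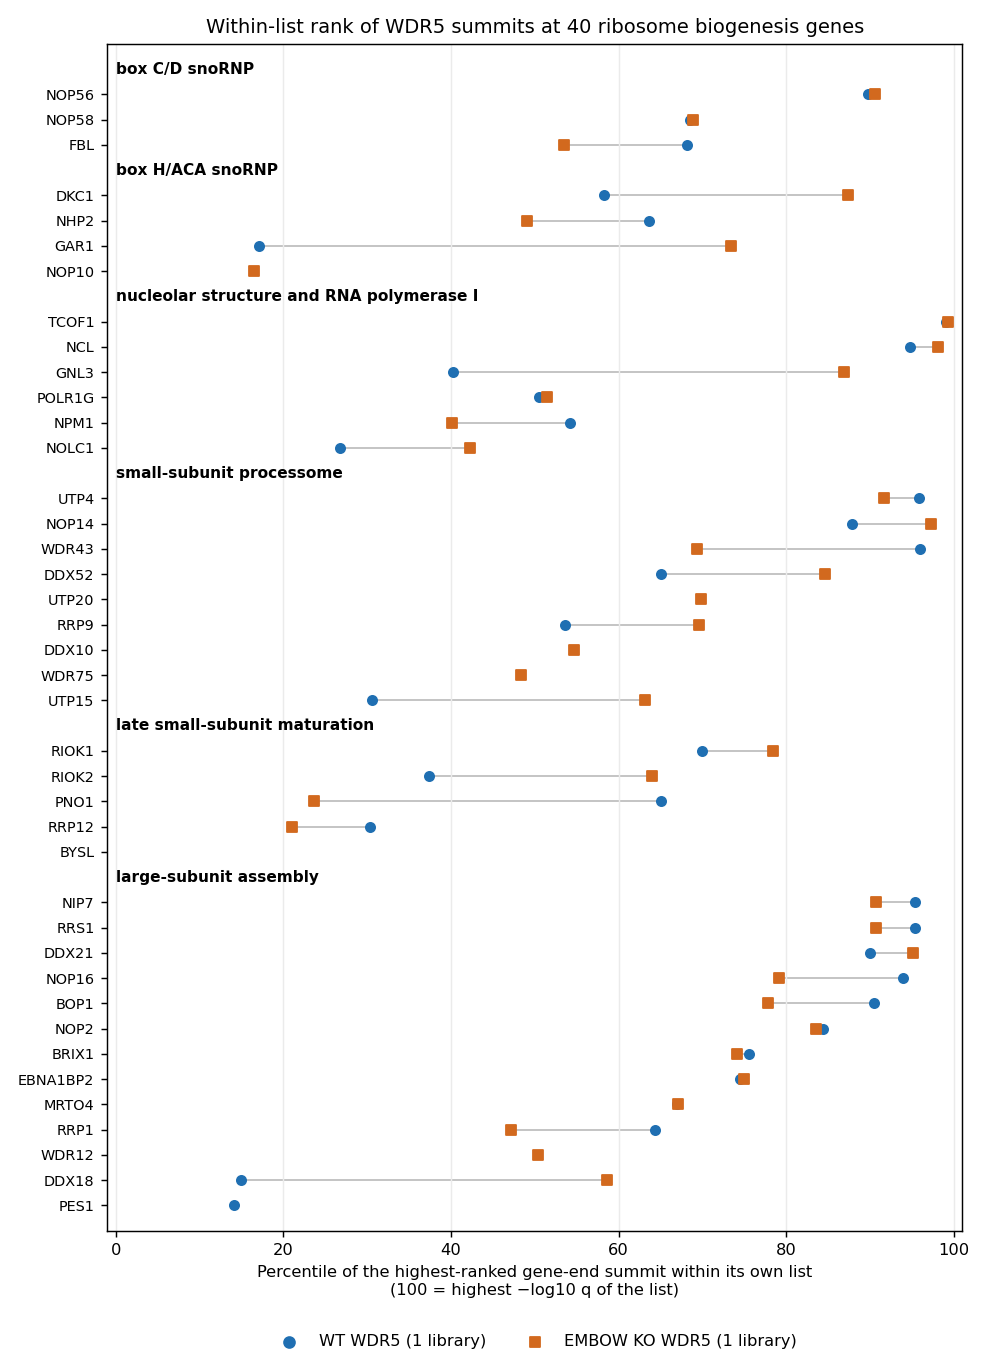
Percentile of the highest-ranked gene-end summit within its own list (horizontal axis, 100 is the highest −log10 q) for each of the 40 genes (vertical axis), grouped by role. Blue circles are WT, orange squares are KO, grey lines join them, and a missing symbol means no gene-end summit. TCOF1 stands highest in both lists, while NOP10, DDX10, WDR75, UTP20 and WDR12 have only the KO symbol and PES1 only the WT symbol.

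Of the nucleolar organisers and RNA polymerase I factors, all 6 had summits in both genotypes, and TCOF1 and NCL had the highest mean ranks of gene-end summits in the whole set. TCOF1 encodes treacle, a nucleolar phosphoprotein that supports transcription by RNA polymerase I and is mutated in Treacher Collins syndrome. Its WT summit (chromosome 5, 150357844) ranked 169 with a −log10 q of 65.0, and its KO summit 69 bp away (150357913) ranked 146 with 99.0. NCL encodes nucleolin, an abundant RNA-binding protein of the nucleolus. In WT the best NCL summit (chromosome 2, 231464301) ranked 913 with a −log10 q of 24.5, and in KO the best (231463970) ranked 411 with 41.0. These best summits lay 331 bp apart, but a further pair upstream of NCL nearly coincided, at 231465366 in WT (rank 2993) and 231465367 in KO (rank 2035). NPM1 encodes nucleophosmin, a histone chaperone and the major scaffold of the granular nucleolus, and its strongest summits lay just past the 1 kb window. They stood inside NPM1 on chromosome 5, at 171388139 in WT (rank 294, −log10 q 42.7) and 171388142 in KO (rank 169, 82.6), which is 1023 and 1026 bp from the gene end. They were 3 bp apart, and 290 and 293 bp downstream of a further NPM1 start that the promoter table gives at 171387849. Within the window were only weaker summits, in WT at 171386404 (rank 8057, −log10 q 7.1) and 171387311 (rank 12408, 4.19) and in KO at 171386986 (rank 12613, 5.20). The ranks and distances given for NPM1 in the summaries and plots are those of these weaker summits.

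The other genes of this group lay lower or differed in position. GNL3 encodes nucleostemin, a nucleolar GTPase, and its best summit was at percentile 40.2 in WT (288 bp inside the gene) and 86.9 in KO (147 bp outside). At POLR1G, a subunit of RNA polymerase I, the best WT summit (chromosome 19, 45405846, rank 8735) and the best KO summit (45406743, rank 10221) were 897 bp apart, while the KO list also held a weaker summit 15 bp from the WT position and a stronger one (rank 4557) outside the window, 1716 bp from the gene end. NOLC1, a chaperone of snoRNPs, was among the 3 lowest genes marked in both lists, at rank 12733 in WT (chromosome 10, 102152487, −log10 q 4.14) and 12115 in KO (102152676, 5.42).

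The box C/D snoRNP proteins methylate ribosomal RNA at sites set by guide RNAs, and all 3 genes were marked in both lists. NOP56 had a pair of summits on either side of its start in each genotype. In WT they were at 2652838 (rank 1801, −log10 q 18.4) and 2652205 (rank 6121, 9.13) on chromosome 20, and in KO at 2652759 (rank 1977, 20.5) and 2652210 (rank 2221, 19.3). NOP58 had its best summits 73 bp apart, at percentile 68.5 in WT and 68.9 in KO. FBL encodes fibrillarin, the methyltransferase itself, and its best summits lay at opposite ends of the gene, 12273 bp apart. The best WT summit (chromosome 19, 39833898, rank 5576, −log10 q 9.74) was beyond the 3′ end of FBL and within 1 kb of DYRK1B. The best KO summit (39846171, rank 9794, 6.93) was 208 bp inside the 5′ end. Each list also held a weaker summit at the other end (WT 39845987, rank 13851, and KO 39833896, rank 20084), so WDR5 was called at both ends of FBL in both genotypes.

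The box H/ACA snoRNP proteins form pseudouridine at sites set by another class of guide RNAs, and this group had 3 of 4 genes marked in WT and 4 in KO. DKC1 encodes dyskerin, the pseudouridine synthase, and its summits lay 53 bp apart on chromosome X, at 154763251 in WT (rank 7351, −log10 q 7.73) and 154763304 in KO (rank 2661, 17.8). NHP2 had best summits 24 bp apart, at percentile 63.6 in WT and 49.1 in KO. GAR1 was at percentile 17.1 in WT and 73.4 in KO, 273 bp apart. NOP10, the smallest subunit, had no WT gene-end summit.

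Among the 9 genes of the small-subunit processome, 6 were marked in WT and 9 in KO. UTP4, a WD40-repeat subunit, had the highest mean rank of the group, with the WT summit (chromosome 16, 69132453) at rank 737 and a −log10 q of 26.9, and the KO summit 19 bp away (69132434) at rank 1742 with 21.6. NOP14 followed at percentile 87.8 in WT and 97.3 in KO. WDR43 was at 95.9 in WT and 69.4 in KO, with summits 72 bp apart. RRP9, which binds the U3 snoRNA, was at 53.6 and 69.6, and UTP15 at 30.6 and 63.1. The DDX52 helicase gene was marked in both lists by a pair of summits 7 bp apart, but these lay 486 and 479 bp beyond its 3′ end, within 1 kb of SYNRG. At the 5′ end of DDX52 only the KO list held a summit (chromosome 17, 37643156, rank 7186, −log10 q 9.52). UTP20, WDR75 and DDX10, the remaining genes of the group, were marked in KO alone.

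The late small-subunit factors act as the pre-40S particle leaves the nucleolus, and 4 of 5 genes were marked in each genotype. RIOK1 and RIOK2 encode atypical kinases of the pre-40S particle. Their best summits were 5 and 95 bp apart, with RIOK1 at percentile 70.0 in WT and 78.4 in KO and RIOK2 at 37.4 and 64.0. PNO1, an RNA-binding partner of the final cleavage step, ranked 6121 in WT (chromosome 2, 68158161, −log10 q 9.13) and 16034 in KO (68157208, 3.51). Those positions are 953 bp apart, yet the KO list held a still weaker summit 1 bp from the WT position, at rank 20793 with a −log10 q of 1.51. RRP12 had the lowest mean rank of all genes marked in both lists, with summits 6 bp apart at rank 12285 in WT (chromosome 10, 97401174, −log10 q 4.23) and 16568 in KO (97401168, 3.35).

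The large-subunit assembly group had 12 of 13 genes marked in each genotype and 11 in both. RRS1, which recruits the 5S ribosomal RNA particle, had its best WT summit at 66429403 (rank 835, −log10 q 25.3) and its best KO summit at 66429258 (rank 1948, 20.5). NIP7, a pre-rRNA binding protein, ranked 815 in WT (chromosome 16, 69339427, −log10 q 25.7) and 1957 in KO (69339384, 20.5), 43 bp apart. DDX21, a helicase of pre-rRNA transcription and processing, was at percentile 90.0 in WT and 95.1 in KO, with summits 345 bp apart. NOP16 had its best WT summit (chromosome 5, 176388423, rank 1082, −log10 q 23.2) 25 bp from the weaker of its KO summits (176388398, rank 7227, 9.37), while its best KO summit (176389348, rank 4411, 13.6) lay 925 bp away, near HIGD2A. BOP1, a member of the PeBoW complex with PES1 and WDR12, had pairs of summits 19 and 4 bp apart between the genotypes, and the pair outside the gene also lay within 1 kb of HSF1. NOP2, an rRNA methyltransferase, had best summits 155 bp apart at percentiles 84.4 and 83.5.

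The rest of the large-subunit group lay between those genes and the bottom of the lists. BRIX1 was at percentile 75.6 in WT and 74.1 in KO, EBNA1BP2 at 74.5 and 74.9, MRTO4 at 67.0 and 67.1, and RRP1 at 64.3 and 47.2. DDX18, a nucleolar helicase, was among the 3 lowest genes by mean rank, with a WT summit at 117814962 on chromosome 2 (rank 15007, −log10 q 3.03) and a KO summit 75 bp away at 117814887 (rank 8621, 7.85).

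A gene-end summit was found in KO and not in WT at 5 genes (12.5%, 4.19 to 26.8%), against 6.99% of all protein-coding genes. Only PES1 showed the converse (2.50%, 0.0633 to 13.2%), against 3.51% of all genes. UTP20 had a KO summit 123 bp inside its start (chromosome 12, 101280228, rank 6363, −log10 q 10.4), and the nearest WT summit to it was 70490 bp away. At DDX10 the KO summit (chromosome 11, 108665351, rank 9505, 7.04) was 72314 bp from the nearest WT summit, and at WDR75 (chromosome 2, 189441779, rank 10841, 6.13) that distance was 139291 bp. UTP20, DDX10 and WDR75 all belong to the small-subunit processome group of 9 genes, and a link to that group was not tested. Among the small-subunit genes of the other factors, KRR1 and NGDN were marked in KO alone, and NOB1 and TSR2 in WT alone. Over all 107 other factors, 8 were marked in KO alone (7.48%) and 5 in WT alone (4.67%), near the 6.99% and 3.51% of all genes. The WDR75 summit also lay within 1 kb of COL5A2, and that of NOP10 within 1 kb of NUTM1. NOP10 had a weak KO summit (chromosome 15, 34342700, rank 17413, −log10 q 2.86), with the nearest WT summit 24845 bp off. WDR12, a PeBoW subunit, was unlike these 4 genes. Its KO summit (chromosome 2, 202912653, rank 10400, 6.39) was 980 bp outside the gene and also lay within 1 kb of CARF. A WT summit stood 25 bp further out at 202912678 (rank 5675, 9.66), which is 1005 bp from the gene end and just past the window. With 1 library per genotype, a summit that was not called in WT cannot be told apart from one that fell below the caller's threshold in that library.

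The promoter sequences of these 5 genes are shown because the KO summits lay just downstream of, or in WDR12 upstream of, the start they contain. Each runs 5′ to 3′ along the gene's own strand, from 250 bases before to 50 after the RefSeq start on GRCh38.p14, and capitals mark the E-box CACGTG, the site that MYC and related factors bind. UTP20 holds it once, beginning 10 bases before the start, NOP10 holds it at 170 and 11 bases before, and the other sequences hold none.
UTP20, chr12:101279855-101280154, plus strand: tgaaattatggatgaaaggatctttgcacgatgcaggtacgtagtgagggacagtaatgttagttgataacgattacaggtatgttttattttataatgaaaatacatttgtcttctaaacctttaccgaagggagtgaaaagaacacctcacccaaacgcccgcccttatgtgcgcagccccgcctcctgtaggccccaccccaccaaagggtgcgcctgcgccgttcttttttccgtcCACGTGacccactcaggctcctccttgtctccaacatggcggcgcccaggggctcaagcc
NOP10, chr15:34343087-34343386, minus strand: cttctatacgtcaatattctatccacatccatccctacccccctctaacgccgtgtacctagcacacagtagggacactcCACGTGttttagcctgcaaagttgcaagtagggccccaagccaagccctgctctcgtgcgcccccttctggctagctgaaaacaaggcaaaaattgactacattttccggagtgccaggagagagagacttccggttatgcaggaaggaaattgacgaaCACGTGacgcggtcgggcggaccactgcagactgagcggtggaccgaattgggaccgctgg
DDX10, chr11:108664819-108665118, plus strand: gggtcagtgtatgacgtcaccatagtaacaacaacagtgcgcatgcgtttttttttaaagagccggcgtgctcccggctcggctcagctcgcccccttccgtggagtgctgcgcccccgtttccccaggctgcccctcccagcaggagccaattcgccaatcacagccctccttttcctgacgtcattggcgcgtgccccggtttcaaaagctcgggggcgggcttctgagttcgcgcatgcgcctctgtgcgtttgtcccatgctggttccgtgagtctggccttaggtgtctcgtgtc
WDR75, chr2:189441224-189441523, plus strand: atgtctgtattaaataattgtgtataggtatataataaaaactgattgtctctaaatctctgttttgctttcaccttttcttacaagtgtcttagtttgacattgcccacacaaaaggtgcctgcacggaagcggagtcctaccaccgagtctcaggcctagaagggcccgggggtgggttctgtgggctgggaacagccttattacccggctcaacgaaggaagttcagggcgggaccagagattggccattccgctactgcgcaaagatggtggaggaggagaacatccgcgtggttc
WDR12, chr2:202911624-202911923, minus strand: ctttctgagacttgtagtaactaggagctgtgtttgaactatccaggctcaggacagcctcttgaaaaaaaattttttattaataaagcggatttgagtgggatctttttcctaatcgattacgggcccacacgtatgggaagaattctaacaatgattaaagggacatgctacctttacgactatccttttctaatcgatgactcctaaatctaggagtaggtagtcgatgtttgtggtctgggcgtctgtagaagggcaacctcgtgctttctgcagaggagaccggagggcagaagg

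BYSL and PES1, like NPM1 above, depended on which start was used. BYSL encodes bystin, a late small-subunit factor, and its RefSeq gene interval on chromosome 6 begins upstream of the start that the promoter table gives at 41921499, which is 11547 bp from the nearer gene end. Neither list had a gene-end summit for that interval. Around the internal start, however, WT had a summit 302 bp downstream (41921801, rank 8234, −log10 q 7.02) and KO one 165 bp upstream (41921334, rank 4557, 13.2), and both also lay within 1 kb of MED20. PES1, a PeBoW subunit, has an interval on chromosome 22 that extends 15103 bp past the start in the promoter table. Its WT gene-end summit (30606987, rank 15150, −log10 q 2.93) was at the outer end, within 1 kb of TCN2, and a stronger WT summit (30591736, rank 8926, 6.44) stood 174 bp downstream of the internal start. The nearest KO summit to that start was 76327 bp away, so PES1 had no KO summit at either start. Measured from the starts of the promoter table alone, which holds 32 of the 40 genes, 27 genes were marked in WT (84.4%, against 54.6% of all genes in the table) and 31 in KO (96.9%, against 58.1%).

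The sequences around these internal starts follow in the same layout. That of UTP4 is added because its best summits fell within the window, 196 bases before the start in WT and 215 in KO. UTP4 holds the E-box from 16 bases before the start, BYSL from 28 after and PES1 from 13 after.
BYSL, chr6:41921249-41921548, plus strand: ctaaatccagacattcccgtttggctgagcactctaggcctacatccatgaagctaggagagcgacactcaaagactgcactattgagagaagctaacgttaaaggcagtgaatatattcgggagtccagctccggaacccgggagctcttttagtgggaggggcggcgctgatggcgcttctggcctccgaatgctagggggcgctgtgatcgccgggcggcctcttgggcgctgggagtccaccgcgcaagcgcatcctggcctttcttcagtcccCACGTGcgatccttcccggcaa
PES1, chr22:30591861-30592160, minus strand: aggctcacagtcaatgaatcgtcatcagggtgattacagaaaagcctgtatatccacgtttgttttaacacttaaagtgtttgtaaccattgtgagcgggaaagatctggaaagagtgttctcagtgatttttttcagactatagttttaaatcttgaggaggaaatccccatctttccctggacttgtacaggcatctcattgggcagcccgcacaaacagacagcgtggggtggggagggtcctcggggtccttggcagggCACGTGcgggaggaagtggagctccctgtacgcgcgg
UTP4, chr16:69132399-69132698, plus strand: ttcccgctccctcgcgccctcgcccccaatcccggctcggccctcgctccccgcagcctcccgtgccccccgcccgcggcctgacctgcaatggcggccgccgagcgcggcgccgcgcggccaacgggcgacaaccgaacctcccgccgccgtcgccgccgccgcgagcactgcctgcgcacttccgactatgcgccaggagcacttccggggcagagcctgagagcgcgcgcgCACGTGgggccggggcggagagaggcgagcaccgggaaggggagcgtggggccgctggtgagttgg

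An E-box was common in the promoters of the set. The most upstream start of each gene in the promoter table was scanned. CACGTG reads the same on both strands, and it was present in 14 of the 32 promoters (43.8%), against 8.82% of 15843 protein-coding promoters of the same length and 11.0% of those whose gene had a KO gene-end summit. Among the 107 other ribosome biogenesis factors, 97 had a promoter in the table and 28 of these held it (28.9%). With any start in the promoter table allowed, 17 of the 32 genes held it (53.1%). That share was 28.9% of the other factors, 10.9% of all genes and 13.2% of those with a KO gene-end summit. The 14 genes with it at the most upstream start were UTP4, UTP20, WDR43, RRP9, NOP14, FBL, NOP10, POLR1G, BYSL, PNO1, PES1, NOP2, MRTO4 and EBNA1BP2. In 13 of them an E-box began within 50 bases of the start, which was so in 71.4% of the promoters with an E-box among the other factors and 38.6% among all protein-coding genes. The share holding CCGGAAG on either strand, a core recognised by ETS factors, was 31.2% (10 of 32), below the 49.5% of the other factors and above the 14.2% of all promoters and 20.6% of those with a KO summit. Median GC content was 62.3% here, 62.7% over all promoters and 66.7% over those whose gene had a KO gene-end summit. Within the set, the median percentile was 68.2 in WT and 69.5 in KO for genes with the E-box at the most upstream start. It was 64.3 and 73.8 for those without it there, some of which held it at another start. A match to these letters describes the sequence and does not show that a factor was bound.

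Most best summits lay inside the gene. This held for 24 of 34 genes in WT (70.6%, against 76.2% of all marked genes) and 26 of 38 in KO (68.4%, against 75.6%). The best summit was a median of 282 bp from the gene end in WT and 297 bp in KO, against 286 bp over all marked genes in each list. More than 1 gene-end summit was present at 15 of 34 genes in WT (44.1%, against 25.4% of all marked genes) and at 14 of 38 in KO (36.8%, against 27.2%). Summits on both sides of the same gene end, as at NOP56, NCL and NOP14, were seen at 10 of 34 genes in WT (29.4%, against 20.0% of all marked genes) and at 12 of 38 in KO (31.6%, against 22.0%). The best summit also lay within 1 kb of an end of another protein-coding gene in 17 of 34 cases in WT (50.0%, against 28.2%) and 18 of 38 in KO (47.4%, against 27.9%). Such summits cannot be assigned to the ribosome biogenesis gene alone. NIP7 shared its summits with COG8, RIOK1 with CAGE1, RRP9 with PARP3 and UTP4 with CHTF8.

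**Figure D3:**
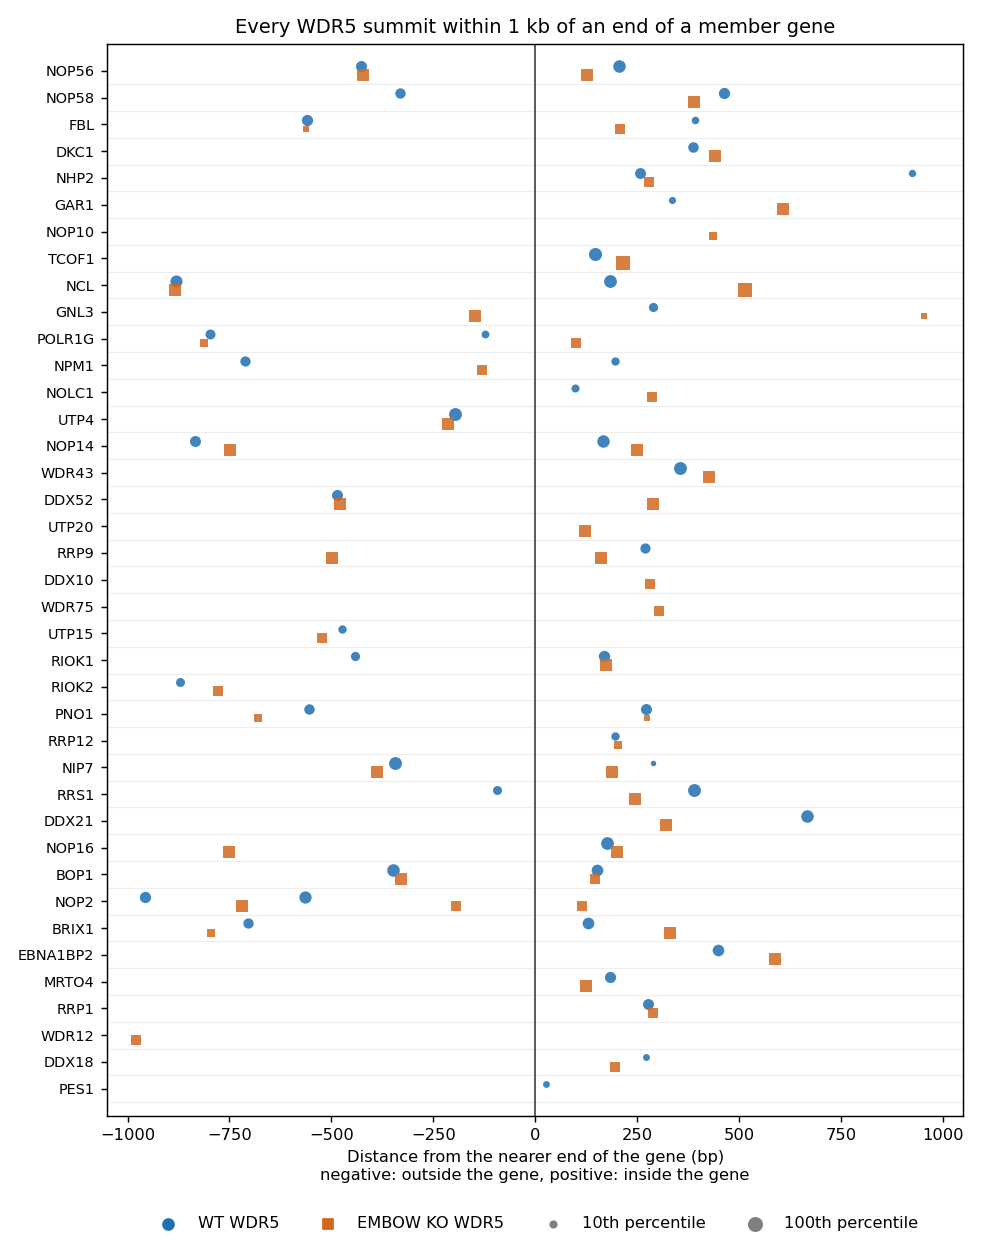
Distance in bp (horizontal axis) of each WDR5 summit from the nearer end of its gene, for the 39 genes with at least 1 such summit (vertical axis). Negative values are outside the gene and positive values inside, blue circles are WT and orange squares KO, and a larger symbol means a higher percentile within its list. At NOP56, NCL and NOP14 both lists have summits on either side of the gene end, while the KO summits of UTP20, DDX10, WDR75 and NOP10 lie 123 to 436 bp inside the gene.

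Where both genotypes had a gene-end summit, the distances between them were like those of all genes marked in both lists. Each summit had to lie within 1 kb of an end of the same gene, so the rule itself bounds the distance at a shared end. Taking the closest pair can only shorten it. The best summits of the 33 genes were a median of 82 bp apart (range 5 to 12273), against 78 bp for all 9307 genes marked in both lists. They lay within 500 bp at 28 of 33 genes (84.8%), against 86.4% of all such genes. FBL, PNO1, NOP16, POLR1G and NPM1 were further apart, and the first 4 of these had a closer pair among their weaker summits, 2, 1, 25 and 15 bp apart. With the closest pair in place of the best summits, NPM1 came to 325 bp (its strongest summits, 3 bp apart, lie past the window), the largest distance in the set was 435 bp at GNL3, and all 33 genes were within 500 bp, against 95.1% of all such genes. The median of the closest pairs was 59 bp, against 55 bp over all genes.

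**Figure D4:**
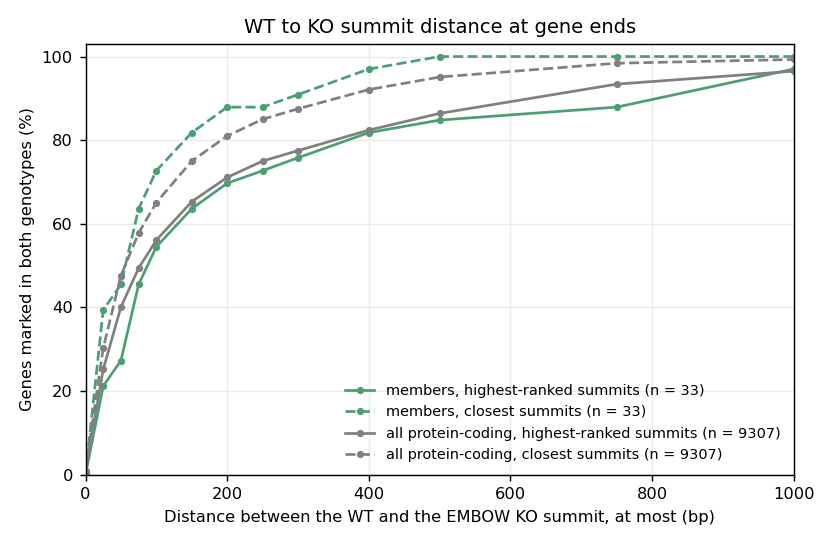
Cumulative percent of genes marked in both genotypes (vertical axis) whose WT and KO summits lie within a given distance in bp (horizontal axis). Green lines are the 33 ribosome biogenesis genes and grey lines all 9307 protein-coding genes, solid for the highest-ranked summits and dashed for the closest pair. The solid lines reach 84.8% and 86.4% at 500 bp, and the dashed green line reaches 100%.

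Small nucleolar RNA genes lie inside 7 of the 40 genes in the RefSeq table, in NOP56, NOP58, DKC1, NCL, GNL3, WDR43 and UTP20. Such host genes supply guide RNAs for the snoRNPs from their introns. Of these, 6 were marked in WT (85.7%, against 85% of the set and 50.0% of all protein-coding genes). In KO all 7 were marked (100%, against 95% and 53.4%). Their median percentile was 79.1 in WT (40.2 to 95.9) and 86.9 in KO (68.9 to 98.1), against 66.1 and 67.1 for the other marked genes of the set, and the ranges overlapped. Neither the share of host genes nor their ranks were computed over all protein-coding genes, and a link to hosting was not tested. The small nucleolar RNA gene inside UTP20 is listed only as LOC124903119.

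Tagged EMBOW was not called at any of these genes. None of the 40 genes had an EMBOW-F gene-end summit, against 1.40% of all protein-coding genes. The count of 0 allows a share of up to 7.50%, taken as 3 counts of 40 (the exact interval in the plot of shares reaches 8.81%), so a set of this size cannot show a lower share than the rest. No EMBOW-F summit lay inside any of the 40 gene intervals. The nearest one to a gene end was 18198 bp from RIOK2, followed by BOP1 at 45217 bp and DDX18 at 58304 bp, and the median over the set was 2585004 bp. Over the 107 other factors the median was 1490277 bp. Neither this distance nor the count inside genes was computed for all protein-coding genes, so neither can be called particular to the set. Among the genes marked in KO and not in WT, the nearest EMBOW-F summit was 65260 bp from DDX10, 88739 bp from WDR75 and 874373 bp from UTP20. These lay below the set median, while WDR12 at 3845330 bp and NOP10 at 10050153 bp lay above it.

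The wider pathway was described with 107 further ribosome biogenesis factors. A gene-end summit was present at 93 of them in WT (86.9%) and 96 in KO (89.7%), 88 had one in both lists and none had one in the EMBOW-F list. The highest mean ranks were those of DDX31, a nucleolar helicase (98 in WT and 110 in KO, summits 35 bp apart), REXO4 (128 and 119, 42 bp apart) and POLR1D, a subunit shared by RNA polymerases I and III (143 and 121, 3 bp apart). In KO and not in WT were 8 factors (7.48%), led by UBTF, the upstream binding factor of RNA polymerase I (rank 4103), KRR1 (5402) and NOP53 (7266). For UBTF the nearest WT summit stood 2412 bp from the nearer end, whereas the nearest WT summit to KRR1 was 237690 bp off. In WT and not in KO were 5 factors (4.67%), led by RRP8 (rank 7380), NOB1 (9536) and TAF1A (12301). These shares lay near the 6.99% and 3.51% of all genes.

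The authors' deposited table of transcripts, which their file name describes as new WDR5 targets that depend on EMBOW, held transcripts of 8 of the 40 genes (20.0%). The share was 7.97% over all protein-coding genes and 10.3% (11 of 107) over the other ribosome biogenesis factors. The authors' deposited table was chosen by the authors on these samples and is not independent of the summit lists. It included 4 of the 5 genes marked in KO and not in WT (UTP20, DDX10, WDR75 and NOP10), each with a KO summit 100 to 400 bp from a listed 5′ end in the authors' deposited table. DDX52 was also listed, with a KO summit 262 bp and the nearest WT summit 11920 bp from a listed 5′ end. The authors' deposited table further held NOP2, NOP16 and RRP12, where WT summits stood 524, 145 and 109 bp from a listed 5′ end and KO summits 98, 170 and 115 bp. For these 3 genes the summit lists thus show WDR5 near the listed start in both genotypes. Over all genes marked in KO and not in WT, 66.6% had a transcript in the authors' deposited table, against 2.92% of genes marked in both.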

How the data were processed

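ChIP-seq summit lists for WDR5 in WT and EMBOW KO cells and for tagged EMBOW were used, with the authors' transcript list. H3K4me3 and input libraries were not analysed here. Per the submitters' processing notes, the tools were MACS2 2.2.7.1, Bowtie2 2.4.5 and deepTools 3.5.1 and the build was hg38, with no role or setting given. The deposited lists hold intervals of 1 bp and a score read from the values as −log10 q, since each minimum lies just above that of a q of 0.05. Pooling, alignment settings and the choice of input are not given in the sources used here. Tagged EMBOW's list (EMBOW-F) was matched to the FLAG precipitation, the only ChIP of tagged EMBOW in the labels.

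Genes and their ends came from RefSeq (GRCh38.p14, the same primary assembly as hg38). Summits within 1 kb of either end were assigned to a gene, ranked within their list by −log10 q, and the best per genotype compared. All 40 genes matched by symbol, and 32 had an entry in the RefSeq promoter table. NOP58, DDX18, DDX52, BOP1, RRP12, RRS1, NOLC1 and TCOF1 had none. The 5′ end of DDX52 was taken from the strand of the authors' transcripts. A listed transcript was matched to a gene when it lay within the gene and shared an end with it to within 100 bp. The set and its gene lists were chosen with earlier results of these data known. All 40 genes are accounted for, with values in full for the 5 highest and 3 lowest mean ranks, genes unmarked in a genotype, the 5 largest distances, NCL, NPM1, FBL, NOP56 and DKC1. Of the other factors, the 3 highest, the 3 leading genes of each single genotype and the small-subunit genes of a single genotype are named. Intervals are exact (Clopper-Pearson), at 95%, and the limit for a count of 0 is 3 counts of the total. The assignment was tested on simulated data. The computations used Python 3.11.15 with pandas 2.3.3, numpy 2.4.6 and scipy 1.17.1, and the figures matplotlib 3.10.9. A line of the transcript list had a damaged chromosome name, which was repaired.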

Additional observations from a re-analysis of the deposited data

How the results depend on the processing

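The processing alternatives were windows of 500 bp and 2 kb, a q of 1e-05 or less, gene starts alone, a KO list shortened to the WT length, other partner distances, closest pairs and ranks among gene-end summits. Counts stayed within 1.5 times their values, and medians within the binomial interval of the median, in 34 of 35 recomputed values. The exception was the number of genes with best summits within a partner distance, which went from 28 at 500 bp to 18 at 100 bp, as a shorter distance must lower it. The limit of 1.5 times is wide, since no count could pass 40 genes and the EMBOW-F count was 0 in every setting. At a q of 1e-05 or less the WT count fell from 34 to 27, and that in both lists from 33 to 26. Ranked among gene-end summits, the median percentile went from 67.6 to 59.9 in WT and from 69.7 to 59.0 in KO. Single-genotype calls changed more. At a q of 1e-05 or less, 9 of the 40 genes had only a KO mark, against 1913 of all 20037 (9.55%). DDX18, GAR1, NOLC1, RIOK2 and UTP15 joined through the loss of weak WT summits and NOP10 dropped out, and PNO1 replaced PES1 as the WT case. At 500 bp, NCL, GAR1, EBNA1BP2 and UTP15 lost their KO mark by position. This left 5 of the 40 genes with only a WT mark, against 1164 of all 20037 (5.81%). DDX21 and NOP2 lost their WT mark, so 6 of the 40 had only a KO mark, against 1814 of all 20037 (9.05%). At 2 kb WDR12 was marked in both and the strongest NPM1 summits came inside the window. UTP20, DDX10 and WDR75 kept their KO mark without a WT mark under every window, q and list length tried. No EMBOW-F summit appeared at any of the genes under these settings. No replicate could be left out, and unknown depth limits every comparison between lists.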
